A study of Mus musculus with 40 samples.

Results

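The 125 genes described here are the protein-coding mouse genes named Zfp followed by a number from 1 to 399 that had at least 10 counts in at least 5 of 40 RNA-seq libraries. Of 130 genes with such a name, 5 stayed under that limit, and the 125 members stood among 14547 protein-coding genes that passed it and 41388 features in all. Zfp42, a marker of pluripotent cells better known as Rex1, reached 10 counts in 0 libraries, as did Zfp345 and Zfp352, while Zfp366 did so in 1 and Zfp82 in 2. Just inside the limit lay Zfp90 with 6 libraries, Zfp69 with 7 and Zfp296 with 9, all of them below 0.5 cpm, the count scaled to the library's size, on average.

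The libraries came from 2 mouse lines that carry a Cre-dependent EGFP-tagged ribosomal protein L10a, so that ribosomes of Cre-expressing cells, and the mRNA on them, can be pulled down with an antibody to GFP (translating ribosome affinity purification, TRAP). The RBP4 line expresses Cre from the transgene Tg(RBP4-cre)KL100Gsat/Mmcd, which marks layer 5 projection neurons of cortex, and the VGAT line from the Slc32a1 locus (Slc32a1 tm2(cre)Lowl), which marks GABAergic neurons. Mice were 21 d old, each replicate was a pool of forebrains of both sexes (the labels give cortex), and 5 pools per line each gave 4 libraries. These were whole-cell homogenate RNA (WCH), TRAP RNA from that homogenate, RNA of the synaptoneurosome fraction (SNF), in which pinched-off synaptic terminals are concentrated, and SynapTRAP RNA (ST), the ribosome pulldown from the SNF. The groups within a line share all alleles, and each of the 40 libraries came from mice with the tag.

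Zinc finger proteins of this series mostly carry tandem Cys2His2 fingers, short folds held by a zinc ion that read DNA a few bases at a time. Neighbouring fingers are joined by a short linker that is strongly conserved from finger to finger. Many also carry a KRAB box, which recruits the corepressor TRIM28 and with it histone methyltransferases and heterochromatin proteins to silence transposable elements and other targets. Their proteins act in the nucleus, and their genes often lie in clusters of near copies. A minority do other work: they bind RNA, the spindle or cytoplasmic partners.

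Coding sequences of GENCODE M21 (GRCm38) placed the members on this map. They held a median of 11 Cys2His2 spacings per protein, from 0 in Zfp36, Zfp185, Zfp330 and Zfp365 to 31 in Zfp236 and 37 in Zfp142. A KRAB-like pattern was found in 59 members, and 107 carried at least 1 copy of the conserved linker, 692 copies in all with 576 distinct sequences. Chromosome 7 held 31 members, chromosome 17 held 14 and chromosome 13 held 12. The longest coding transcript of the members had a median GC content of 45.7%, with a range from 37.1 to 62.1%, against 50.2% over 14736 genes. Linkers are printed below to show letter by letter how linker codons differ in G and C. GC content of the transcripts ran alongside the SynapTRAP values described further on. The printed copies do not all follow the GC content of their transcripts. Many differences between the printed copies are synonymous, but some change the amino acid. The Zfp358 copy has CGT in place of AAA or AAG. Those of Zfp260 and Zfp316 end in TTT and TTC in place of TAC. Capitals mark the 18 linker bases between 2 fingers, the lower-case triplets are the last codon of the finger before and the first codon after, and all run 5′ to 3′ on the coding strand.
Most frequent linker, 19 copies in 7 members: catACTGGAGAGAAACCTTACaaa
Zfp260, chr7:30105133-30105156, plus strand: cacACCGGAGAGAAACCGTTTgaa
Zfp46, chr4:136291120-136291143, plus strand: cacACAGGAGAGAAGCCTTACgaa
Zfp9, chr6:118464845-118464868, minus strand: cacACAGGGGAGAAACCCTACaaa
Zfp316, chr5:143253884-143253907, minus strand: cacACCGGCGAGAAACCGTTCgtg
Zfp358, chr8:3496281-3496304, plus strand: cacACAGGCGAGCGTCCCTACcca
All 5 located copies lie in coding exons. The capitals held 44.4% G and C in the most frequent linker, 50% in the Zfp260 and Zfp46 copies and 55.6% in that of Zfp9. They held 61.1% in the Zfp316 copy and 66.7% in that of Zfp358, and over all 692 copies the median was 50%, with a range from 33.3 to 77.8%. Each located copy is 1 of 4 to 9 linkers of its gene and does not stand for the others. A relation of linker GC content to the SynapTRAP change was not tested.

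Each library kept 8950847 to 21976631 counts after mitochondrial, rRNA and tRNA genes were left out, so that 1 count was worth 0.0455 to 0.112 cpm, and cpm are used throughout. The markers followed the labels in TRAP, where summed GABAergic markers lay between 314 and 714 cpm in RBP4 and between 9102 and 11550 cpm in VGAT mice. Summed layer 5 and glutamatergic markers lay between 717 and 1106 cpm and between 190 and 372 cpm. In RBP4 ST the library of replicate 4 stood apart, with 49.9 cpm of the GABAergic marker Slc32a1 against 10.9 to 19.7 cpm in the other 4, which is inside the 23.3 to 51.3 cpm of VGAT ST. The SNF libraries of replicate 3 in both lines had 40.2% and 41.9% of their counts on the mitochondrial genome against 11.2 to 19.4% in the other 8. In RBP4 TRAP the library of replicate 5 stood apart, with 331 cpm of the GABAergic marker Gad1 against 58.3 to 95 cpm in the other 4 and 2016 to 3470 cpm in VGAT TRAP. In VGAT TRAP the library of replicate 3 stood apart, with 155 cpm of Slc17a7 against 24.6 to 48.8 cpm in the other 4. Its Fezf2 was 18.6 cpm against 4.1 to 5.76 cpm, and its Gad1 was the lowest of the group. For RBP4 ST replicate 4, counts and most named calls are given with and without the library. For RBP4 TRAP replicate 5, counts between the lines are given without the replicate, but values of most named TRAP calls are not. Values of named TRAP calls are not given without VGAT replicate 3 either.

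In WCH the levels of the members ranged widely. Zfp365, known as DBZ, binds DISC1 and acts in neurite growth, and it had no Cys2His2 spacing in its protein. It had the highest mean of the members in WCH, at 369 to 518 cpm in the RBP4 line, where its range overlapped that of Zfp207, and 539 to 581 cpm in the VGAT line, where it did not. Per kilobase of exon, its mean WCH level was 91.2 cpm in RBP4 and 109 cpm in VGAT mice. The next on that scale in RBP4 WCH was Zfp207, a spindle and kinetochore protein known as BuGZ, at 46.6 cpm per kb. After it came the nucleolar Zfp330 at 27.3, Zfp260 at 25.7 and the BTB-domain regulator Zfp131 at 25 cpm per kb. The paper reports that its library priming placed reads heavily toward the tail end of transcripts. Counts of such reads need not scale with exon length, so the order per kilobase is not one of RNA abundance. Summed over the members, RBP4 WCH held 3803 ± 390 cpm (SD, n = 5) and VGAT WCH held 3787 ± 132 cpm (SD, n = 5).

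The first comparison asks which RNAs are found in synaptoneurosomes relative to the whole homogenate. Every replicate number was taken to mark the pool that gave both libraries. Zinc finger gene RNAs were lower in the SNF for most members. The summed level was 2193 ± 325 cpm (SD, n = 5) in RBP4 SNF and 2201 ± 161 cpm (SD, n = 5) in VGAT SNF, and it was lower in 5 of 5 pools of each line, with a median ratio within pools of 0.577 and 0.576. In edgeR's quasi-likelihood test, 95 of 125 members fell in RBP4 and 104 in VGAT mice, and 0 rose. Over all genes tested, 36.1% fell and 13.4% rose in the RBP4 line, and 45.2% fell and 19.3% rose in the VGAT line. The lines share no library here, and 92 members fell in both, 107 in at least 1.

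**Figure D1:**
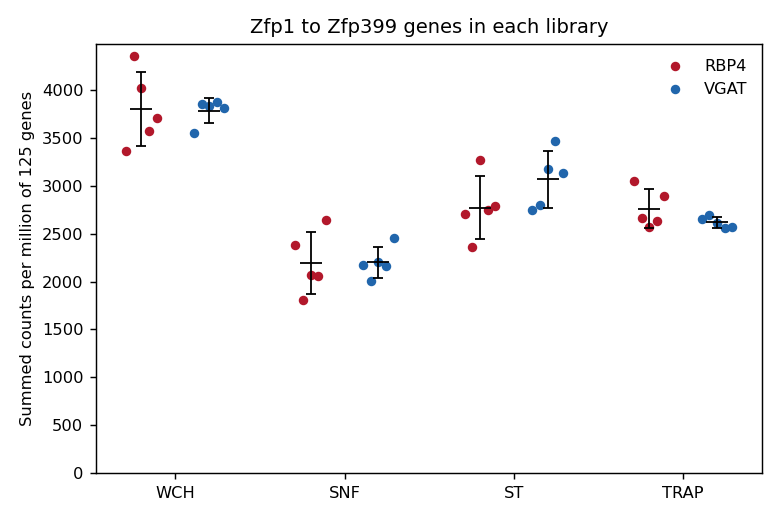
Summed level of the 125 members (cpm, vertical axis) in each of the 40 libraries, by fraction and line, with a point for each library and bars for the mean and SD of 5. In both lines all 5 WCH libraries lie above all SNF libraries (3363 to 4355 cpm against 1804 to 2645 cpm in the RBP4 line), and ST lies between the 2 in every pool of the VGAT line.

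The members' median log2 fold change was -0.96 in both lines, against a median of -0.50 and -0.52 over all genes, and all 125 lay below 0 in both lines. Below the median of all genes lay 108 members in each line. All 5 SNF libraries lay under all 5 WCH libraries for 78 members in RBP4 and for 86 in VGAT mice, which 27.1% and 36.9% of all genes also did. Of 5 tested nuclear marker RNAs, 3 fell in RBP4 and 2 in VGAT mice, and they summed to 15141 to 34306 cpm in WCH and to 1480 to 11929 cpm in SNF of the RBP4 line. Glial markers moved the other way. All 6 astrocyte markers rose in both lines, summing to 2682 to 5296 cpm in WCH and 8914 to 24784 cpm in SNF of the RBP4 line. Of 5 oligodendrocyte markers 4 and 5 rose, of 5 microglia markers 4 and 5, and of 4 endothelial markers 0 and 2. The part of all these markers in the members' result was not tested.

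**Figure D2:**
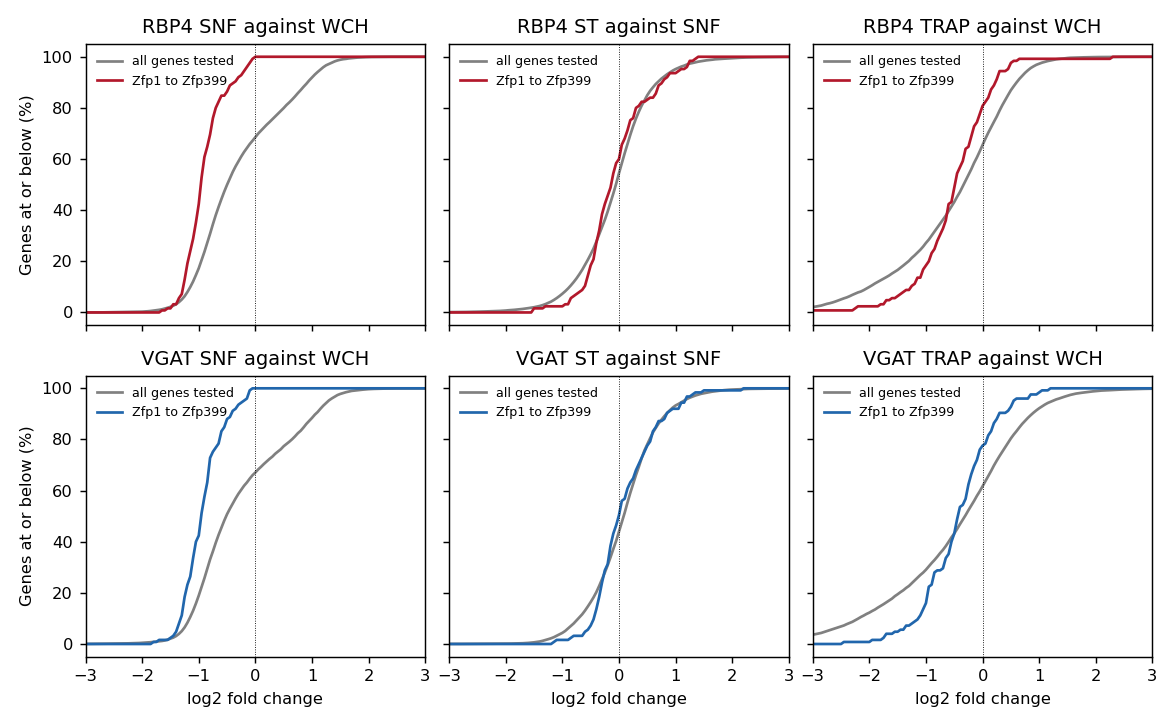
Cumulative share of genes (%, vertical axis) at or below each log2 fold change (horizontal axis), for the members and for all genes tested, by comparison and line. In SNF against WCH the members' curve runs left of that of all genes, with medians of -0.96 against -0.50 and -0.52, and in ST against SNF the members' medians are -0.14 and -0.00.

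Among the most abundant members, Zfp207 had 236, 423, 370, 231 and 291 cpm in WCH and 153, 107, 87, 114 and 187 cpm in SNF of the RBP4 line. In the VGAT line it had 188, 219, 331, 341 and 317 cpm in WCH and 98.6, 90.8, 78.2, 145 and 196 cpm in SNF. Its RBP4 groups did not overlap, while 1 VGAT library of SNF lay above the lowest of WCH. Zfp207 fell by 1.26 ± 0.21 (log2, SE) in the RBP4 line, with an edgeR adjusted p = 0.000147, and VGAT libraries gave a fall of 1.20 ± 0.25 (edgeR adjusted p = 0.000279).

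Zfp148, a factor known as ZBP-89 that binds GC-rich promoters, had 147, 205, 160, 158 and 144 cpm in WCH and 82.1, 85.9, 69.8, 98.1 and 96.2 cpm in SNF of the RBP4 line. Its VGAT libraries had 171, 192, 176, 154 and 164 cpm in WCH and 103, 84.6, 90.7, 76.5 and 97.2 cpm in SNF. No library of either line crossed over, and Zfp148 fell by 0.91 ± 0.15 (edgeR adjusted p = 0.000139) and by 0.92 ± 0.11 (edgeR adjusted p = 5.6e-07). Zfp260, a transcription factor of the heart in early work, held 114 to 172 cpm in WCH and 54.3 to 99.2 cpm in SNF of the RBP4 line, and 121 to 154 cpm in VGAT WCH and 53.8 to 72.8 cpm in VGAT SNF. It fell by 1.09 ± 0.22 (edgeR adjusted p = 0.000452) and by 1.14 ± 0.16 (edgeR adjusted p = 3.82e-06).

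Among members of at least 1 cpm whose RBP4 libraries did not overlap, Zfp74, Zfp11, Zfp148 and Zfp207 had the smallest p. Zfp11 had 10.9, 21.6, 17, 15.6 and 16 cpm in RBP4 WCH against 6, 4.34, 3.62, 5.78 and 7.26 cpm in SNF. It fell by 1.59 ± 0.25 (edgeR adjusted p = 0.000128), and it fell in VGAT mice too (edgeR adjusted p = 6.59e-06). Zfp74 fell by 1.10 ± 0.17 and 1.08 ± 0.13 (edgeR adjusted p = 0.000126 and 4.45e-07). In the VGAT line these places went to Zfp346, Zfp286, Zfp9 and Zfp68. Zfp346, which binds double-stranded RNA, had 36.6 to 44.5 cpm in VGAT WCH against 19.1 to 21.4 cpm in SNF and fell (edgeR adjusted p = 1.14e-07). Zfp286 fell by 1.29 ± 0.13, Zfp9 by 1.37 ± 0.15 and Zfp68 by 1.13 ± 0.13. Zfp286 and Zfp9 fell in RBP4 mice as well, at -1.27 ± 0.22 and -1.26 ± 0.28.

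Grouped by role, shares of members that fell can be read against the 36.1% and 45.2% of all genes. Of 9 RNA-binding, cytoplasmic or cytoskeletal members, 6 fell in each line, and 3 did not pass the test in either, namely Zfp36 (tristetraprolin, which drives decay of AU-rich mRNAs), Zfp106 (an RNA-binding protein needed by motor neurons) and Zfp365. Both members that bind the p75 neurotrophin receptor, Zfp110 and Zfp369, fell in both lines, by 0.67 and 0.61 and by 0.84 and 1.07. Of 10 members listed as general DNA-binding regulators without KRAB, 6 fell in each line, and Zfp91, Zfp217, Zfp219 and Zfp335 did not pass. Zfp57, a KRAB protein that keeps imprints, in which the pattern searched here was not found, fell by 1.38 ± 0.35 and by 1.32 ± 0.40 (edgeR adjusted p = 0.00311 and 0.00622).

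Zfp365 stood out by its level. In the RBP4 line it had 469, 518, 504, 515 and 369 cpm in WCH and 483, 379, 581, 404 and 396 cpm in SNF, and in the VGAT line 569, 581, 575, 560 and 539 cpm in WCH and 468, 440, 712, 481 and 513 cpm in SNF. The groups overlapped in both lines, and its log2 fold changes of -0.08 ± 0.18 and -0.11 ± 0.16 had edgeR adjusted p of 0.718 and 0.551, with the highest SNF value in the library of replicate 3 each time. In all, 18 members passed the test in neither line. Beside Zfp365, Zfp106, Zfp91, Zfp217, Zfp219 and Zfp236, which come up again below, these were Zfp24, Zfp36, Zfp41, Zfp59, Zfp69, Zfp90, Zfp97, Zfp146, Zfp185, Zfp229, Zfp296 and Zfp335. Several of them, such as Zfp97 with 81.3% and Zfp90 with 77.1% of their 50-base words shared with other genes, are also among the members whose unique counts are least certain.

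Scaling moved these counts more than any other setting. With TMM factors the median of all genes was -0.17 in both lines, 61 and 78 members fell and 0 rose, against 17.9% and 27.9% of all genes lower, and the members' medians were -0.64 and -0.62. Some members turned sign: 113 of 125 in RBP4 and 115 in VGAT mice lay below 0 with TMM factors, with Zfp365 at 0.28 and 0.25, and none of the turned members was called with library-size or TMM scaling. DESeq2 gave 60 and 67 members lower, against 14.9% and 23.1% of all genes.

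SNF values ran with GC content across the members, as a description over 125 genes that share libraries. Spearman's rho of the log2 fold change with GC content was 0.46 in RBP4 and 0.23 in VGAT mice, against 0.22 and 0.14 over all genes. With the number of finger spacings it was -0.27 and -0.26. The 59 members with the KRAB-like pattern had a median of -1.02 in the RBP4 line and the 66 others, Zfp57 among them, one of -0.90, and in the VGAT line these were -1.03 and -0.86.

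Next, ST was compared with the SNF it was drawn from, to ask which RNAs of the synaptic fraction sit on tagged ribosomes. Markers of the tagged cells limit this reading. In RBP4 mice 0 of 5 layer 5 and glutamatergic markers rose, and 3 of 6 GABAergic markers fell. In VGAT mice 2 of 6 GABAergic markers rose, and 1 of 5 layer 5 and glutamatergic markers rose too. The latter was Bcl11b, which was also higher in VGAT TRAP than in WCH, by 0.42 (edgeR adjusted p = 0.0104). Its rise therefore does not mark untagged cells. The rises below are therefore not shown to be specific to the tagged cells. Most members did not pass the test, and the shares that rose were near those of all genes. Among those that rose, Zfp365 had the highest level. Zfp219, Zfp316 and Zfp358 had larger log2 fold changes in both lines, but by less than their SE except for Zfp219 in VGAT mice. Without the RBP4 ST library of replicate 4, their RBP4 changes were smaller than that of Zfp365, as given below. In the RBP4 line 9 members rose and 4 fell, against 5.64% and 5.46% of all genes, and in the VGAT line 24 rose and 4 fell, against 16.3% and 11.2%. On leaving out each RBP4 pool in turn, 3 to 8 members rose and 0 to 3 fell, with 3 higher and 1 lower without the whole of replicate 4, 5 higher and 0 lower without replicate 1, and 2 lower without replicate 3. The same with VGAT pools gave 16 to 23 that rose and 1 to 6 that fell, with 1, 2 and 6 lower without replicates 1, 2 and 3. All 9 of the first line are among the 24 of the second, namely Zfp64, Zfp91, Zfp106, Zfp219, Zfp236, Zfp316, Zfp326, Zfp358 and Zfp365. All 5 ST libraries lay above all 5 SNF libraries for 4 members and under them for 2 in RBP4 mice, against 3.55% and 3.09% of all genes. In VGAT mice these were 17 and 1 members, against 8.99% and 6.38%. The members' medians were -0.14 and -0.00, against -0.05 and 0.08 over all genes. This comparison uses the same SNF libraries as the one before, so that the values of both are not independent.

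Zfp365 had 960, 823, 1458, 907 and 914 cpm in RBP4 ST and 953, 962, 1428, 1504 and 1118 cpm in VGAT ST. All lay above the highest SNF value of their line, at 581 and 712 cpm. Zfp365 rose by 1.18 ± 0.18 (edgeR adjusted p = 0.000189) and by 1.19 ± 0.16 (edgeR adjusted p = 7.82e-06). The summed level of the members was also higher in ST than in SNF in 5 of 5 pools of each line, at 2774 ± 325 cpm (SD, n = 5) and 3068 ± 299 cpm (SD, n = 5). Without the library of replicate 4, RBP4 ST summed to 2780 ± 375 cpm (SD, n = 4). Without Zfp365 the sums were 1745 cpm in SNF and 1761 cpm in ST in RBP4 and 1678 and 1875 cpm in VGAT mice, and its median share of all member RNA went from 20.3% to 34.9% and from 21.9% to 35.6%. In bulk RNA, fewer cells or terminals of a type and less of an RNA in each cannot be told apart.

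**Figure D3:**
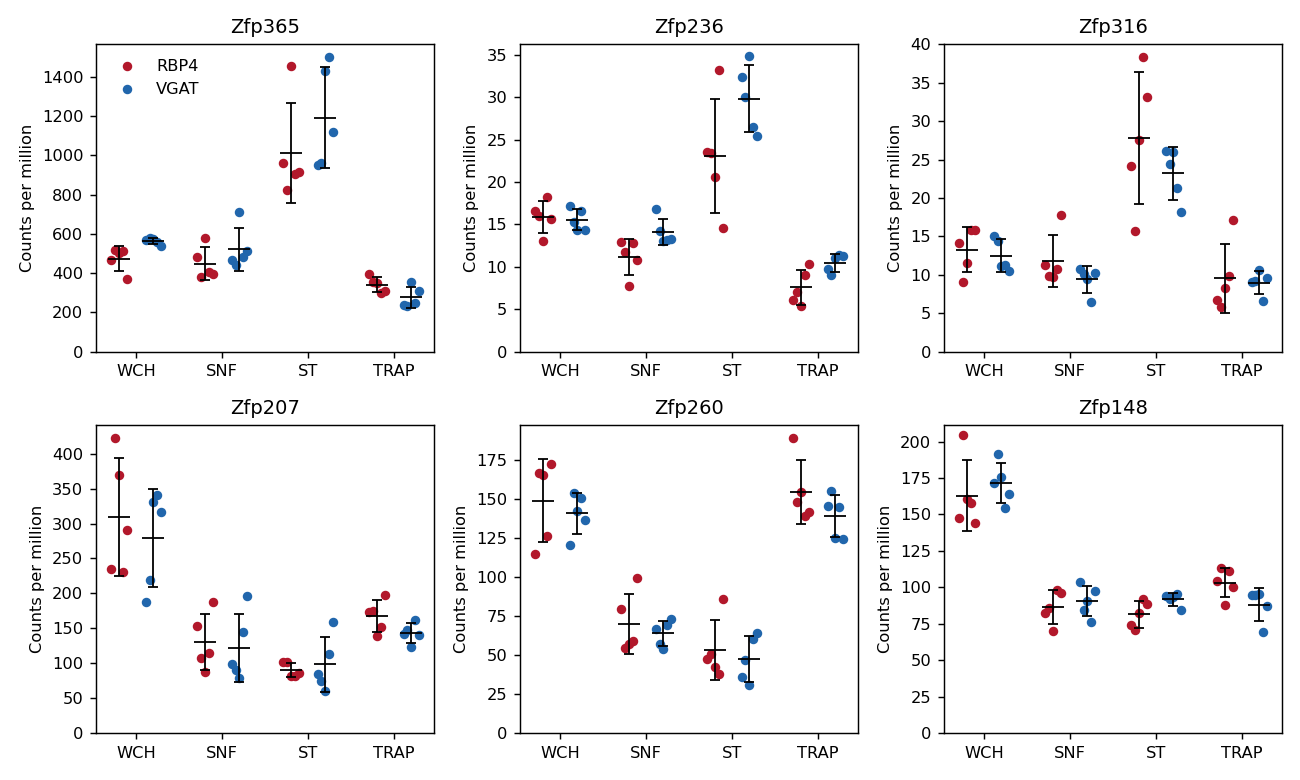
Level (cpm, linear axis) of Zfp365, Zfp236, Zfp316, Zfp207, Zfp260 and Zfp148 by fraction and line, with a point for each library and bars for the mean and SD of 5. Zfp365 lies at 823 to 1458 cpm in RBP4 ST, above all its SNF libraries, and Zfp207 reaches its highest value, 423 cpm, in WCH.

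Zfp236, the member with the second-most finger spacings, had 12.9, 11.7, 7.72, 12.8 and 10.8 cpm in RBP4 SNF and 23.5, 23.5, 20.5, 33.2 and 14.5 cpm in RBP4 ST. In the VGAT line it had 16.8, 14.2, 13.1, 13.2 and 13.3 cpm in SNF and 32.3, 30, 34.8, 26.6 and 25.4 cpm in ST. Its ST libraries lay above all SNF libraries in both lines, and Zfp236 rose by 1.04 ± 0.22 (edgeR adjusted p = 0.00329) and by 1.08 ± 0.12 (edgeR adjusted p = 8.14e-07). Zfp316, a GC-rich gene at 58.6%, had 11.2, 9.83, 9.68, 10.7 and 17.8 cpm in RBP4 SNF and 24.1, 15.8, 27.6, 38.4 and 33.1 cpm in RBP4 ST, where only 1 ST library lay under the highest SNF library. It had 6.44 to 10.8 cpm in VGAT SNF and 18.2 to 26.1 cpm in VGAT ST, without overlap, and it rose by 1.23 ± 0.28 (edgeR adjusted p = 0.00568) and by 1.30 ± 0.17 (edgeR adjusted p = 3.44e-06).

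Zfp358, at 57% GC, had 2.61, 3.64, 3.62, 5.26 and 5.06 cpm in RBP4 SNF and 6.85, 5.32, 10.5, 10.9 and 13.4 cpm in RBP4 ST. Its VGAT libraries ran from 2.75 to 5.5 cpm in SNF and from 8.67 to 15.8 cpm in ST. No library crossed over in either line, and Zfp358 rose by 1.21 ± 0.28 (edgeR adjusted p = 0.0065) and by 1.30 ± 0.22 (edgeR adjusted p = 0.000111). Zfp219, a transcriptional repressor, was low, with 0.634 to 0.988 cpm in VGAT SNF and 2.31 to 4.83 cpm in VGAT ST, and it rose by 2.17 ± 0.27 (edgeR adjusted p = 2.63e-06). In RBP4 ST it ran from 1.38 to 6.08 cpm, the top value being replicate 4, and it rose by 1.30 ± 0.39 (edgeR adjusted p = 0.0323). Of the exon bases of Zfp219, 12.1% overlap other genes.

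Without the RBP4 ST library of replicate 4 alone, its SNF, WCH and TRAP libraries being kept, 6 members rose and 3 fell, against 4% and 3.93% of all genes. Zfp64, Zfp91 and Zfp219 then missed the threshold, at 0.60, 0.69 and 0.87 (edgeR adjusted p = 0.0926, 0.0797 and 0.152), and Zfp106, Zfp236, Zfp316, Zfp326, Zfp358 and Zfp365 still passed it. The changes were then 0.87 for Zfp236, 1.08 for Zfp316, 1.15 for Zfp358 and 1.21 for Zfp365 (edgeR adjusted p = 0.0144, 0.0214, 0.0183 and 0.000446). Zfp106, one of the RNA-binding members, had 46.7 to 70.9 cpm in RBP4 SNF and 93.1, 75.9, 109, 159 and 65.3 cpm in RBP4 ST, and it rose by 0.79 ± 0.19 (edgeR adjusted p = 0.00847), or by 0.56 without that library. Zfp106 had 42.7 to 76.2 cpm in VGAT SNF and 96.3 to 163 cpm in VGAT ST and rose by 1.16 ± 0.15 (edgeR adjusted p = 4.33e-06). Of its exon bases, 26.1% overlap another gene.

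Among the role groups, 3 of the 9 RNA-binding, cytoplasmic or cytoskeletal members rose in RBP4 and 5 in VGAT mice, beside 5.64% and 16.3% of all genes. They were Zfp106, Zfp326 (a splicing and elongation factor) and Zfp365 in both lines, with Zfp318 at 0.70 ± 0.16 and Zfp346 at 0.39 ± 0.10 in the VGAT line. Of the 10 general DNA-binding members, 3 rose in the RBP4 line (Zfp64, Zfp91 and Zfp219) and 6 in the VGAT line. Zfp110 and Zfp369 rose by 0.43 ± 0.15 and 0.54 ± 0.17 in the VGAT line, and both calls were lost with TMM factors.

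The members that fell were Zfp57, Zfp141, Zfp146 and Zfp239 in RBP4 mice and Zfp11, Zfp26, Zfp60 and Zfp72 in VGAT mice, with 0 in both. Zfp57 had 8.53, 4.92, 4.11, 4.43 and 13.4 cpm in RBP4 SNF and 2.3, 4.05, 1.23, 1.72 and 2.69 cpm in RBP4 ST. Every ST value was below every SNF value, and Zfp57 fell by 1.55 ± 0.37 (edgeR adjusted p = 0.00758), but without replicate 1 the edgeR adjusted p was 0.0609. In the VGAT line its difference was -0.85 ± 0.42 (edgeR adjusted p = 0.138). Zfp26 fell by 1.18 ± 0.26 in the VGAT line (edgeR adjusted p = 0.00138), and 18.6% of its exon bases overlap another gene. With the pool as a block, 7 members fell in RBP4 and 9 in VGAT mice.

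The change also ran with GC content, again as a description. Spearman's rho of the ST against SNF change with GC content was 0.36 in RBP4 and 0.64 in VGAT mice, against 0.22 and 0.35 over all genes. Among 32 members of 50% GC or more the VGAT median was 0.58 and 14 rose, while among 93 below 50% the median was -0.15, 10 rose and 4 fell. Members of 1 to 5 finger spacings had a VGAT median of 0.38 and those with over 15 one of -0.13. Markers of oligodendrocytes, a cell type that neither Cre targets, summed to 31259 to 43784 cpm in RBP4 ST against 11796 to 18415 cpm in RBP4 SNF, and to 31861 to 53924 cpm in VGAT ST against 14472 to 17640 cpm in VGAT SNF. Of the 5 markers 2 rose and 0 fell in RBP4 mice, and 2 rose and 1 fell in VGAT mice, with median changes of -0.16 and -0.57. Endothelial markers had medians of 2.50 and 1.46, with 2 of 4 higher in each line. Astrocyte medians were -0.54 and -0.49 and microglia medians -0.825 and -0.46, with 0 of either called in RBP4 mice. In VGAT mice 1 of 6 astrocyte markers rose and 1 fell, and 2 of 5 microglia markers fell. The part of these markers in the members' result was not tested.

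**Figure D4:**
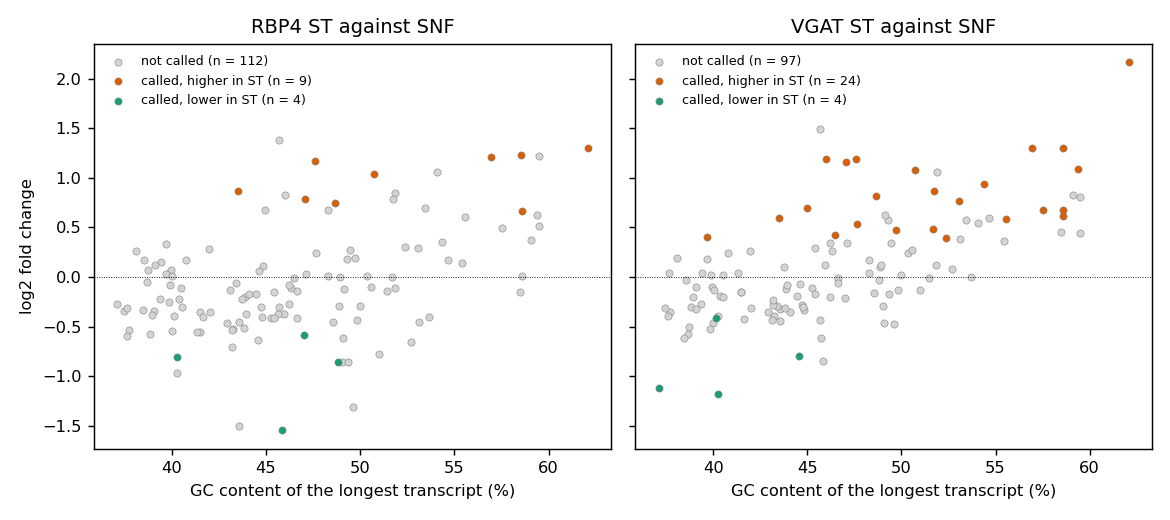
Log2 fold change of ST against SNF (vertical axis) against GC content of the longest coding transcript (%, horizontal axis) for each member, by line, with called members in colour. The 32 members of 50% GC or more have a median of 0.58 in the VGAT line, and the 93 below it one of -0.15.

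Scaling changed this comparison too. In the VGAT line TMM factors gave 16 members higher and 13 lower, against 11.7% and 14.6% of all genes, and DESeq2 gave 15 and 23, against 11.7% and 17.8%. In the RBP4 line Zfp365, Zfp316, Zfp236, Zfp358, Zfp106, Zfp326, Zfp64, Zfp91 and Zfp219 kept their calls with TMM factors and with DESeq2.

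TRAP against WCH asks which RNAs sit on the ribosomes of the tagged cells as a whole. Most members that passed the test were lower, as were most of all genes that passed it. The shares of members that fell, 35.2% in RBP4 and 43.2% in VGAT mice, were near those of all genes. The shares that rose, 1.6% and 8.8%, were smaller than those of all genes. For RBP4 mice 44 members fell and 2 rose, against 31.5% and 8.37% of all genes, and in the VGAT line 54 fell and 11 rose, against 41.8% and 21% of all genes. The medians were -0.49 and -0.44, against -0.34 and -0.31 over all genes. Markers of untagged cells and nuclear RNAs were lower in the same comparison, with median changes of -2.44 and -2.76 for 6 astrocyte, -2.43 and -2.57 for 5 oligodendrocyte, -2.60 and -2.18 for 5 microglia, -2.10 and -2.85 for 4 endothelial and -2.20 and -2.99 for 5 nuclear markers. Of these markers 5 and 6, 4 and 5, 5 and 5, 2 and 3, and 4 and 5 fell, and their part in the members' result was not tested. The RBP4 libraries of TRAP and WCH did not overlap for 2 members that were higher and 34 lower, against 6.42% and 23.8% of all genes, and the VGAT libraries for 8 and 48, against 16.9% and 34.7%. Both lines shared 34 falls, and Zfp64 was the single member that rose in both. The 2 that rose in the RBP4 line were Zfp64 and Zfp296, the latter named after its values were seen.

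Zfp64, a transcriptional coactivator, had 7.75, 5.72, 6.99, 8.78 and 8.14 cpm in RBP4 WCH and 9.48, 9.36, 10.2, 13.2 and 12.1 cpm in RBP4 TRAP. It had 4.89 to 7.7 cpm in VGAT WCH and 8.7 to 12.2 cpm in VGAT TRAP. No TRAP library lay under a WCH library in either line, and Zfp64 rose by 0.54 ± 0.20 (edgeR adjusted p = 0.0369) and by 0.80 ± 0.18 (edgeR adjusted p = 0.000788). In the RBP4 line its edgeR adjusted p ran from 0.0609 to 0.1001 on leaving out each replicate in turn, so that every one of these fits lost the call. Of the 11 that rose in the VGAT line, Zfp358 rose most, at 1.17 ± 0.21 (edgeR adjusted p = 8.22e-05), with 4.95 to 10.5 cpm in WCH and 13.8 to 18.9 cpm in TRAP. Zfp277 had 24.9 to 32.6 cpm in VGAT WCH and 39.8 to 44.5 cpm in VGAT TRAP and rose by 0.56 ± 0.10 (edgeR adjusted p = 9.63e-05).

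The falls were large for some low members. Zfp217, part of a repressor complex with CoREST, had 1.55 to 2.19 cpm in RBP4 WCH and 0.0495 to 0.28 cpm in RBP4 TRAP, a few counts a library. It fell by 3.12 ± 0.58 (edgeR adjusted p = 0.000246), and in VGAT mice by 1.95 ± 0.36 (edgeR adjusted p = 7.9e-05). Among the higher ones Zfp148 fell by 0.66 ± 0.15 and 0.96 ± 0.11 (edgeR adjusted p = 0.00133 and 2.49e-07), Zfp131 by 0.95 ± 0.11 in the VGAT line, and Zfp207 by 0.89 ± 0.20 and 0.96 ± 0.25. Zfp275 fell by 1.41 ± 0.20 (edgeR adjusted p = 1.7e-05) and 1.07 ± 0.16 and Zfp266 by 1.36 ± 0.32 and 1.78 ± 0.22. Zfp260 did not pass, at 0.05 and -0.02 (edgeR adjusted p = 0.863 and 0.932), and it kept 139 to 189 cpm in RBP4 TRAP.

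The summed level was 2760 ± 203 cpm (SD, n = 5) in RBP4 TRAP and 2618 ± 57.6 cpm (SD, n = 5) in VGAT TRAP, lower than WCH in 5 of 5 pools of each line. Zfp365 was lower than in WCH, by 0.47 ± 0.18 in RBP4 mice (edgeR adjusted p = 0.0409) and by 1.03 ± 0.16 in VGAT mice (edgeR adjusted p = 1.36e-05), with 299 to 395 cpm and 231 to 355 cpm in TRAP. The RBP4 call was lost with TMM factors. With TMM factors 11 members rose and 29 fell in the RBP4 line, against 19.3% and 22.4% of all genes, and 17 rose and 37 fell in the VGAT line, against 29.4% and 32.5%.

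Of 23 measured KRAB corepressor and heterochromatin genes, 17 fell from WCH to SNF in each line (73.9%, against 36.1% and 45.2% of all genes) and 0 rose. From SNF to ST 3 and 9 rose (13% and 39.1%, against 5.64% and 16.3%). In TRAP 7 and 10 fell (30.4% and 43.5%, against 31.5% and 41.8%) and 2 and 4 rose. Of 195 protein-coding Zfp genes of number 400 and above, 130 fell in RBP4 and 152 in VGAT mice in the SNF (66.7% and 77.9%), with 1 rise each. In ST 8 and 34 of them rose (4.1% and 17.4%, against 5.64% and 16.3%), and 2 and 8 fell. Trim28, the corepressor itself, had a mean of 133 cpm in RBP4 WCH and 74.2 cpm in SNF.

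Comparisons between the lines ask how the tagged cells of the 2 lines differ. The paper reports that its dissection likely took in some dorsal striatum, with markers of striatal GABAergic neurons enriched in VGAT TRAP. Neuron class and brain region therefore cannot be told apart in these comparisons. In WCH 0 members were called in either direction, with 1 at an unadjusted p under 0.05 and 0 by DESeq2, and 0.00592% of all genes called higher and as many called lower. All 5 WCH libraries of the RBP4 line lay above those of the VGAT line for 2 members and under them for 1, against 0.793% and 0.763% of all genes. In ST 0 members were called either way, against 0.0592% of genes higher and 0.266% lower, with 1 and 10 at an unadjusted p under 0.05 and 0 by DESeq2. The ST groups did not overlap for 0 members that were higher and 1 that was lower, against 0.13% and 1.22%. The line markers separated less in ST than in TRAP. In ST 0 of 5 layer 5 and glutamatergic markers were called, and 2 of 6 GABAergic markers were lower in the RBP4 line. In TRAP 4 of these 5 were higher and 1, Bcl11b, lower, and all 6 GABAergic markers were lower. Without replicate 4 of RBP4 ST 3 members were lower in the RBP4 line, Zfp3, Zfp180 and Zfp106, at -0.95, -0.64 and -0.61.

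In TRAP, 7 members were higher in the RBP4 line and 11 lower, against 12.9% and 15.1% of all genes, which is a share of members below that of all genes in each direction. Without RBP4 replicate 5, 6 were higher and 17 lower, against 11.9% and 17.1% of all genes, and 4 were higher without RBP4 replicate 1 or any 1 of VGAT replicates 2 to 5. The groups did not overlap for 10 members that were higher and 13 that were lower, against 9.58% and 13.2% of all genes. The members' median was 0.09 against -0.01. Zfp46 had 40.9, 37.6, 38.4, 34.9 and 48.5 cpm in RBP4 TRAP and 21.6, 22.5, 23.5, 30.3 and 19.8 cpm in VGAT TRAP, without overlap. It was 0.77 ± 0.18 higher in the RBP4 line (edgeR adjusted p = 0.00122). Zfp9 had 25.5 to 33.4 cpm against 13.1 to 16.6 cpm and was 0.92 ± 0.22 higher (edgeR adjusted p = 0.00159), and Zfp131 had 42.5 to 67 cpm against 30.5 to 36.7 cpm and was 0.64 ± 0.16 higher (edgeR adjusted p = 0.00263).

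Zfp114 was low and higher in the VGAT line, with 0.358, 0.891, 0.363, 0.501 and 0.728 cpm in RBP4 TRAP and 1.91, 1.49, 2.36, 1.48 and 2.04 cpm in VGAT TRAP. Its difference was -1.69 ± 0.29 (edgeR adjusted p = 3.85e-05). Of its 50-base words, 29.5% are shared with other genes, so that its unique counts are less certain. Zfp105 had 3.22, 1.73, 2.65, 3 and 3.25 cpm in RBP4 TRAP and 8.8, 9.93, 4.59, 8.61 and 5.78 cpm in VGAT TRAP. Its groups did not overlap and its difference was -1.44 ± 0.25 (edgeR adjusted p = 3.85e-05). The lowest VGAT value was that of replicate 3, the library with raised Slc17a7. Zfp219 differed by -1.54 ± 0.35 (edgeR adjusted p = 0.00113), with 0.259 to 0.952 cpm against 1.65 to 2.27 cpm, and Zfp2 by -0.70 ± 0.17 (edgeR adjusted p = 0.00198).

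**Figure D5:**
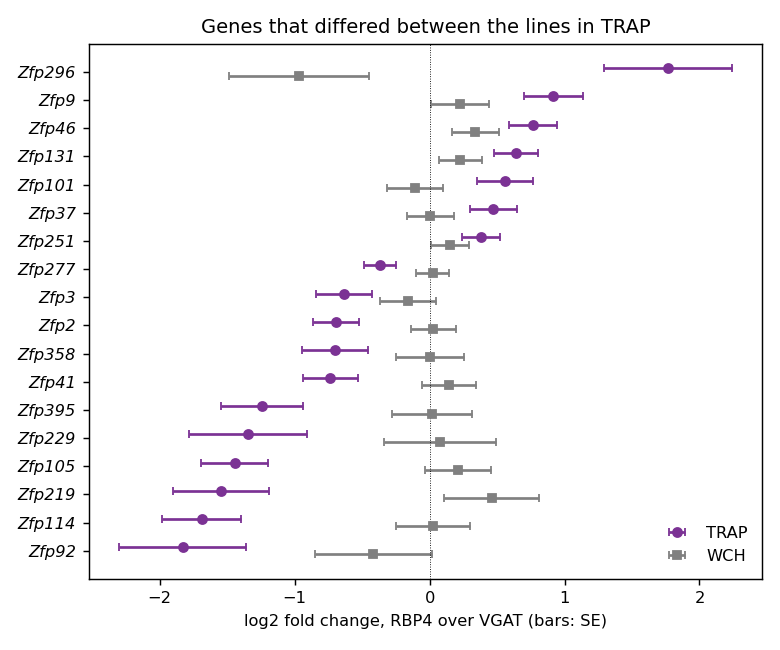
Log2 fold change of the RBP4 over the VGAT line (horizontal axis) for the 18 members called in TRAP, with points for the TRAP and WCH libraries and bars for the SE. The TRAP points run from -1.83 for Zfp92 to 1.77 for Zfp296, and in WCH 0 members were called.

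The lines were also compared for the difference between ST and TRAP, where 2 members were higher in the RBP4 line and 1 lower, against 5.02% and 5.79% of all genes. They were Zfp105 at 1.23 ± 0.35 (edgeR adjusted p = 0.0199), Zfp92 at 2.12 ± 0.65 (edgeR adjusted p = 0.0322) and Zfp46 at -0.85 ± 0.25 (edgeR adjusted p = 0.0232). For Zfp105 and Zfp46 the ST groups overlapped and the TRAP groups did not. Without the RBP4 ST library of replicate 4 alone they were 1.13, 2.06 and -0.97 (edgeR adjusted p = 0.0398, 0.0472 and 0.00904). Each of these calls was lost on leaving out some of the whole replicates, where 0 to 4 members were higher and 0 to 4 lower. The call of Zfp105 was lost without RBP4 replicate 3 or 4 or VGAT replicate 2 or 4, that of Zfp92 without RBP4 replicate 1, 4 or 5 or VGAT replicate 1 or 2, and that of Zfp46 without RBP4 replicate 3 or VGAT replicate 1, 2 or 5.

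Candidates for local translation were taken as genes with a higher level in SNF than WCH and a further rise in ST. Somatic candidates were higher in TRAP than WCH and lower in SNF, and an unadjusted p under 0.05 was asked of both steps. The steps are those of the study, but the threshold was set here, so the lists are not the study's lists. Of the members, 0 met the first rule in the RBP4 line or the VGAT line, where 0.417% and 1.29% of genes did, since 0 members rose in the SNF, and DESeq2 gave 2 in the VGAT line. The RBP4 libraries gave 1 member as a somatic candidate, Zfp64, where 5.94% of genes were, and with TMM factors there were 10, and 2 with the pool as a block. In the VGAT line 10 members were, where 13.2% of genes were: Zfp2, Zfp3, Zfp30, Zfp35, Zfp64, Zfp105, Zfp277, Zfp318, Zfp330 and Zfp358.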

How the data were processed

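The authors deposited for each of the 40 libraries a table of raw counts per gene, with CPM and RPKM columns beside it. Per the submitters' processing notes, reads were aligned with STAR 2.0.4b and counted with featureCounts 1.4.5, and the kit did not mark strand, so that reads of overlapping genes on opposite strands cannot be told apart. CPM and RPKM recomputed from the deposited counts matched the authors' columns within 4.07e-10 and 4.91e-11. The members and gene lists were chosen with earlier results of these data known. Genes of GRCm38 were named through GENCODE M21, and 390 genes (37 mitochondrial, 353 rRNA or tRNA) were left out.

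Counts were tested with edgeR 4.0.16 (quasi-likelihood, R 4.3.3), with library size as the scale. Within a line, 20 libraries were fitted together, and a gene entered when 3 or more of them reached 0.5 cpm. Between lines, 30 libraries (WCH, TRAP and ST) were fitted, with the filter set on TRAP and ST. Calls were made with Benjamini-Hochberg adjustment over all genes and a limit of 0.05. The fit was tested on simulated data. Each fold change is log2 with its standard error. Alternatives were TMM factors, DESeq2 1.42.0, a likelihood ratio test, no filter, a replicate block, and each replicate left out. Replicate numbers within a line were taken to name 1 pool. In the RBP4 line, deviations of same-numbered libraries correlated at 0.221 to 0.393 on average, for TRAP with WCH, SNF with WCH and ST with SNF. In the VGAT line these were 0.308 to 0.476. For ST with TRAP the correlations were -0.00927 and 0.0609. Same-numbered libraries of different lines, which share no pool, correlated at 0.191 in WCH, 0.147 in TRAP and 0.0442 in ST. The correlations alone therefore do not establish a shared pool. The main fits used the group alone and did not pair the libraries of a pool. Their p-values measure the spread between libraries within groups.

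Named members were those of the role lists, the 5 with the highest mean cpm, candidates, and up to 4 a direction and comparison that had the lowest p of the called members of at least 1 cpm without overlap between groups. Members named for other reasons, such as the 4 or fewer that make up a small count, were chosen after their values were seen. Shared words count 50-base stretches of a member's transcripts that also occur in another gene's, and 21 members shared over 10% of theirs. Finger spacings, linkers and KRAB-like patterns were searched in the translated coding sequences of GENCODE M21.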

Additional observations from a re-analysis of the deposited data

Results flagged for a closer look

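In groups of 5 libraries, 160 groups were examined for a value far from the other 4 by Dixon's criterion (0.71), and 10 had one, where chance gives about 1 in 20. In RBP4 WCH these were Zfp148 in replicate 2 at 205 cpm and Zfp131 in replicate 5 at 98.6 cpm, both the highest of their group. In RBP4 SNF Zfp316 in replicate 5 was highest at 17.8 cpm, and in RBP4 ST Zfp365 in replicate 3 at 1458 cpm and Zfp260 in replicate 5 at 86 cpm. In VGAT WCH the summed level of the members was lowest in replicate 1, at 3554 cpm. In VGAT SNF Zfp365 and Zfp277 were highest in replicate 3, at 712 and 21.1 cpm, and Zfp358 and Zfp131 lowest in replicate 4, at 2.75 and 29.1 cpm. The SNF library of VGAT replicate 3 is 1 of the 2 with over 40% of their counts on the mitochondrial genome.

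Some members differed between the lines in how they changed, by a test of the difference itself. From TRAP to ST the RBP4 line differed from the VGAT line by 1.23 (log2) for Zfp105, by 2.11 for Zfp92 and by -0.85 for Zfp46. A comparison added after the data were seen asked the same of the step from WCH to TRAP. There Zfp105 differed by -1.66 and Zfp114 by -1.72 (edgeR adjusted p = 0.00103 and 0.00294), and Zfp219 by -2.01 (edgeR adjusted p = 0.0053). Zfp2 differed by -0.72 (edgeR adjusted p = 0.0401, or 0.0668 with TMM factors). Zfp296, which lies near the count limit, differed by 2.74, Zfp395 by -1.26 and Zfp41 by -0.88, and these 3 were named after their values were seen.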

How the results depend on the processing

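Library size sets the centre of these comparisons, and other scalings moved it. In SNF against WCH 61 members were lower in the RBP4 line with TMM factors and 60 with DESeq2, against 95, and 67 in the VGAT line with DESeq2, against 104. In VGAT ST against SNF DESeq2 gave 15 higher and 23 lower, TMM factors 13 lower and the replicate block 9 lower, and the block gave 7 lower in the RBP4 line. In RBP4 TRAP against WCH TMM factors gave 11 higher and 29 lower, DESeq2 12 higher and no filter 1, and in the VGAT line TMM factors gave 17 higher and DESeq2 18. Between the lines, TRAP without a filter gave 4 higher. For ST less TRAP, TMM factors, DESeq2 and the likelihood ratio test gave 4, 7 and 5 higher, the likelihood ratio test 2 lower, and a block by pool, chosen after seeing the data, 3 lower. RBP4 somatic candidates numbered 10 with TMM factors, 11 with DESeq2 and 2 with the block, and VGAT local candidates 2 with DESeq2. The cause was not tested. The block changed no other count by over 1.5 times, and between lines replicate numbers do not name a shared pool.

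Leaving out each replicate in turn gave 75 to 95 lower in RBP4 SNF and 93 to 101 in VGAT SNF. It gave 3 to 8 higher and 0 to 3 lower in RBP4 ST against SNF (3 without replicate 4, 0 without replicate 1), and 16 to 23 higher and 1 to 6 lower in the VGAT line (1 without replicate 1). For TRAP against WCH it gave 1 to 2 higher and 32 to 48 lower in the RBP4 line, and 9 to 11 higher and 43 to 54 lower in the VGAT line. Between the lines it gave 4 to 7 higher and 8 to 17 lower in TRAP (17 without RBP4 replicate 5), 0 to 3 lower in ST, and 0 to 4 higher and 0 to 4 lower for ST less TRAP. RBP4 somatic candidates ran from 1 to 2 (2 without replicate 5) and VGAT somatic candidates from 8 to 10. Of 289 counts under all alternatives, 235 stayed within 1.5 times of the reported count, and 462 of 497 values kept their call among 43 calls of members picked for the smallest p, while calls outside these 43 were lost with TMM factors (Zfp110, Zfp369 and Zfp365, as given above). The depth of about 1 count per 0.0455 to 0.112 cpm limits members under 1 cpm.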
